A study of Rattus norvegicus with 9 samples.

Results

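The unfolded protein and amino acid stress genes followed here are 40 genes of the endoplasmic reticulum (ER) folding machinery, its stress sensors, the Atf4 response and the cytosolic transfer RNA synthetases. They were taken by name, and all 40 of the 17315 genes listed had at least 10 reads in 3 or more of the 9 libraries. Nearest to that limit were Cebpb, with 10 or more reads in 6 libraries and 0 reads in LPE library 3, and Atf3, with 10 or more in 8 libraries, whereas the other 38 reached it in all 9 and none was left outside. In each medium all 40 had 10 or more reads in at least 2 of the 3 libraries. The branches held 15 ER chaperones and folding helpers, 4 sensors and transcription factors of the unfolded protein response, 14 genes of the Atf4 branch and 7 synthetases.

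RNA was sequenced from rat pXEN cells, which are stem cells of the primitive extraembryonic endoderm, in 3 culture media with 3 libraries each. All libraries came from the single line RX1 of strain WKY, and nothing states that the libraries of a medium were separate cultures, so p-values measure a spread that may be technical. The T cells grew on plates coated with 100 ng/ml fibronectin in DMEM/MCDB with LA-BSA, ITS, ascorbic acid, β-mercaptoethanol, dexamethasone at 0.5 µM (a glucocorticoid drug), 2% FBS (serum of fetal calves) and Pdgf, Egf and Lif at 10 ng/ml each. The serum-free LPE cells grew on 10 µg/ml Collagen I in DMEM/F12 and Neurobasal with N2, B27, β-mercaptoethanol and the same doses of the 3 growth factors, without dexamethasone being named. The CPE cells had the LPE coating and base with 1 µM Chir99021, a Gsk3 inhibitor, in place of Lif. LPE and CPE therefore differ from T in base medium, supplements, coating, serum and steroid at once, and CPE in Lif and Chir99021 too. These differences cannot be told apart.

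Gene reads numbered 1698764 to 2161228 in T, 3119049 to 3233526 in LPE and 3127352 to 4418465 in CPE, so 1 read is worth 0.227 to 0.579 CPM (counts scaled to library size), and 8607 to 10621 genes had reads. Reads mapping to several places took 64.9% to 67.6% of T reads and 51.7% to 59.9% of the others, and their part in the results was not tested. All 9 endoderm markers had reads, summing to 3519 to 3985 CPM in T, 3471 to 3780 in LPE and 2725 to 3018 in CPE. Epiblast markers (4 listed) summed to 1.39 to 3.47 CPM in T, from 2 genes, to at most 0.639 in LPE, from 1, and to 2.27 to 8.26 in CPE, from 2 (Klf2 and Esrrb), with Nanog and Sox2 at 0 throughout. Fibroblast markers (6 listed) summed to 1.39 to 32.4 CPM in T, from 3 genes, to 0 in LPE and to 0 to 6.44 in CPE, from 1, with Dcn and Lum at 0 throughout. Trophoblast markers (5 listed) summed to 12.0 to 29.0 CPM in CPE, from 3 genes, and to at most 3.11 elsewhere, with Hand1 and Gcm1 at 0 throughout. Blood and endothelial markers, 3 of 4 with reads, summed to 150.1 to 154 CPM in T, 149 to 208 in LPE and 56.3 to 77.6 in CPE, with Ptprc at 0, and neural markers to at most 0.959 CPM. The part of these cell types in the results was not tested, and in bulk RNA fewer expressing cells and less RNA per cell cannot be told apart.

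As background, the ER lumen folds secreted and membrane proteins, and a yolk sac endoderm cell secretes heavily. When unfolded proteins accumulate, the kinase and ribonuclease Ern1 (IRE1) splices Xbp1 mRNA, Atf6 is cleaved into a transcription factor, and the kinase Eif2ak3 (PERK) phosphorylates eIF2alpha, which favours translation of Atf4. Atf4 is also made when amino acids run short, and it drives genes of amino acid synthesis and uptake and of transfer RNA charging. Reads per gene do not separate spliced from unspliced Xbp1, and neither protein nor phosphorylation was measured.

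Promoters of 33 of the 40 genes (12 ER genes, 2 of the sensor branch, 13 of the Atf4 branch and 6 synthetases) were matched in RefSeq build GRCr8, a different build from the rn6 of the counts, and the 250 bases before the annotated start were read, 1 gene having 2 starts. The ER stress element, at which Atf6 and Xbp1 act, was searched on both strands as CCAAT and CCACG with exactly 9 bases between them, and a second form as ATTGG and CCACG with 1 base between them. The table held 33469 promoters, those of the 33 genes included, so it is not a separate background. The first form was found in 7 of the 33 genes, against 22 promoters in the table (0.0657%). The second was found in 2 of the 33, against 14 (0.0418%). The first stood in 6 of the 12 ER genes and in Xbp1, and the second in 2 of the 12. These sites are shown because they recur in part of the chaperone branch. Each is written 5′ to 3′ on the strand that carries it, with the motif in capitals.
Hspa5: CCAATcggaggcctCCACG
Hsp90b1: CCAATcgaaaggagCCACG
Hsp90b1: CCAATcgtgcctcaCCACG
Calr: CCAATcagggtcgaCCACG
Canx: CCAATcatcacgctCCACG
Dnajc3: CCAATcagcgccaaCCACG
Creld2: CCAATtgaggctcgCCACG
Xbp1: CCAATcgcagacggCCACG
Hyou1, second element: ATTGGcCCACG
Hyou1, second element: ATTGGgCCACG
Herpud1, second element: ATTGGgCCACG

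The C/EBP-ATF element, the site of Atf4 with a C/EBP partner, was searched on both strands as TGATGNAA and was found in 7 of the 33 genes, against 1139 of 33469 promoters (3.40%). No site of one motif overlapped a site of another, and 15 of the 33 genes held at least 1 of the 3 motifs, against 1173 promoters (3.50%). The sites stood in 4 of 6 synthetases, 2 of 13 Atf4 branch genes and 1 of 12 ER genes. They are shown with up to 8 neighbouring bases on each side because they recur among the synthetases. A match is a description of letters and not a binding site.
Herpud1: gtgcgggcTGATGCAAcccgccgt
Trib3: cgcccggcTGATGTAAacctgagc
Chac1: agcaggagTGATGCAAcggcggag
Aars: ggctcggcTGATGCAAtgctcaag
Nars: aggtgatcTGATGCAAcgcttc
Tars: taaccagcTGATGCAAcgggacgc
Mars: gcccacgcTGATGCAAccggaacg

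**Figure D1:**
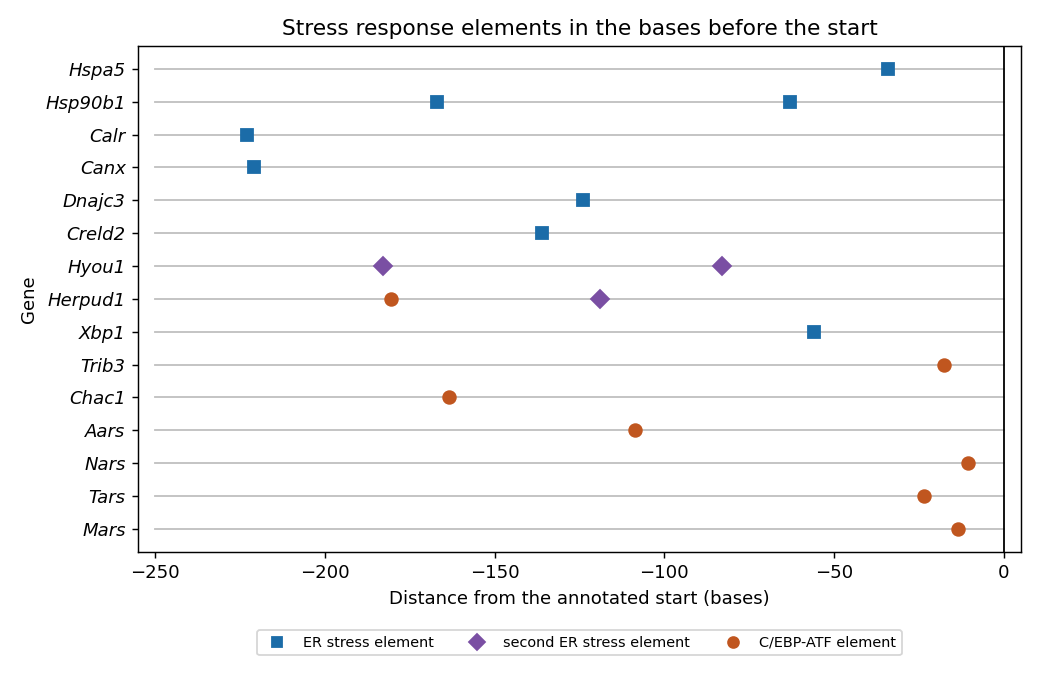
Position of each motif match in the 250 bases before the annotated start, in bases from the start on the x axis, for the 15 of 33 matched genes that held at least 1. The ER stress elements lie in ER genes and Xbp1, the C/EBP-ATF elements mostly in Atf4 branch and synthetase genes, and Herpud1 holds both kinds.

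The promoters of 4 genes are printed whole because they belong to the genes with a motif that changed most, taking the largest absolute log2 fold change of each. Herpud1 and Chac1 rose in both serum-free media, and Xbp1 and Creld2 fell in both. They span chr19:10614708-10614957 on the minus strand (Herpud1), chr3:126795881-126796130 on the plus strand (Chac1), chr14:84604373-84604622 on the plus strand (Xbp1) and chr7:121789134-121789383 on the plus strand (Creld2) of GRCr8, and each site, with its spacer, is in capitals.
Herpud1: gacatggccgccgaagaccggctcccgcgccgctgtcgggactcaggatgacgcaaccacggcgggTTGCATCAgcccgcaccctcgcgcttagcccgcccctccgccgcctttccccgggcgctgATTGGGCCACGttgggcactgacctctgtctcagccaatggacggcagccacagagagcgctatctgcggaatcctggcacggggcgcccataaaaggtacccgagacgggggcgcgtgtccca
Chac1: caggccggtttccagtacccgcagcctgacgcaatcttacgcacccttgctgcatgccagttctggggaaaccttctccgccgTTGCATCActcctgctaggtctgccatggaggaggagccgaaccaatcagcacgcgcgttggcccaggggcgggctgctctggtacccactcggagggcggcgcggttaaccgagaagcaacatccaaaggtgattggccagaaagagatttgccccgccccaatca
Xbp1: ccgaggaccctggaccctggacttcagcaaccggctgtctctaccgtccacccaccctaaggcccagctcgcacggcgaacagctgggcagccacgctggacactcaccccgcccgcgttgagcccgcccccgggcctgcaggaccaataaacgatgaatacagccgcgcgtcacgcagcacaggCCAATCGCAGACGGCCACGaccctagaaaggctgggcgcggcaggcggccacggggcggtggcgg
Creld2: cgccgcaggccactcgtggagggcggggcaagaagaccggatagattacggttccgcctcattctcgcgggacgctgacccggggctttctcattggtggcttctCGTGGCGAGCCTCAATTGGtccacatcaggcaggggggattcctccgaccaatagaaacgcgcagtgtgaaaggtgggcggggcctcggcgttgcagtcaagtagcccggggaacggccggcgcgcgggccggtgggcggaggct

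Called genes with the first ER stress element did not share a direction against T in either medium, nor did those with the C/EBP-ATF element in CPE. Of the 7 genes with the first ER stress element, Calr rose in both serum-free media, Hspa5 rose in LPE and fell in CPE, Canx, Creld2 and Xbp1 fell in both, and Hsp90b1 and Dnajc3 passed in no comparison. Of the 7 with the C/EBP-ATF element, Herpud1, Chac1 and Nars rose in both media, Aars rose in LPE, Tars fell in CPE, and Trib3 and Mars passed in none. Those called in LPE against T thus all rose, but this depends on the threshold. Without passing, Tars and Mars lay wholly below T in LPE, and Trib3 wholly above. Of all genes, 29.7% were called in LPE against T and 32.1% in CPE against T. Of the 2 genes with the second ER stress element, Herpud1 rose in both media, and Hyou1 rose in LPE and did not pass in CPE against T.

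Across the 40 genes, 22 changed between LPE and T, 14 higher and 8 lower in LPE, with edgeR's quasi-likelihood test at an adjusted p under 0.05. That is 55% of them, where 29.7% of the 9130 genes tested were called (15.0% higher and 14.7% lower). Between CPE and T 20 of the 40 changed, 9 higher and 11 lower, against 32.1% of all genes (16.8% higher and 15.3% lower). Between CPE and LPE 10 changed, 1 higher and 9 lower in CPE, against 17.8% of all genes (9.56% higher and 8.23% lower). The median log2 fold changes of the 40 were 0.17, 0.07 and -0.09 in these 3 comparisons, and those of all genes -0.03, -0.01 and 0.01. The comparisons share libraries, so their counts are not independent.

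The members are well expressed genes, with a median level of 149.5 CPM against 42.5 CPM over all genes tested, and calls were more frequent at high levels. Among the 27 members of at least 50 CPM, a level chosen after the data were seen, 12 were called higher and 7 lower in LPE against T, where 46.8% of the 4148 genes at that level were called (23.5% higher, 23.2% lower). CPE against T gave 7 higher and 9 lower, against 48.6% (24.3% and 24.2%), and CPE against LPE gave 1 higher and 8 lower, against 26.2% (13.7% and 12.5%). A change of at least 2-fold was called in 8, 7 and 1 members, where all genes gave 15.0%, 17.2% and 8.83%. The 3 libraries of LPE lay wholly above those of T in 17 members and wholly below in 11, against 47.3% of all genes in either direction (21.9% above, 25.4% below). For CPE against T this held in 14 and 14, against 54.4% (26.2% and 28.1%), and for CPE against LPE in 5 and 11, against 31.3% (16.8% and 14.5%).

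Against T, 9 genes rose in both serum-free media (Pdia3, Calr, Herpud1, Atf6, Ddit3, Chac1, Asns, Gars and Nars) and 7 fell in both (Pdia4, Canx, Dnajb11, Creld2, Manf, Xbp1 and Phgdh). Hspa5 rose in LPE and fell in CPE. Between them the 3 comparisons called 25 of the 40 genes, and 15 passed in none: Hsp90b1, Dnajb9, Dnajc3, Sdf2l1, Ern1, Eif2ak3, Atf4, Trib3, Psat1, Psph, Sesn2, Cebpb, Atf3, Ddit4 and Mars. The shares of all genes called alike in both serum-free media, or called in no comparison, were not counted. Both comparisons against T use the same T libraries, so these counts alone show no excess among the 40. T libraries were closer to each other than the others, the median coefficient of variation of the 40 genes being 7.32% in T, 14.9% in LPE and 13.7% in CPE, against 13.6%, 26.9% and 22.3% over all genes.

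**Figure D2:**
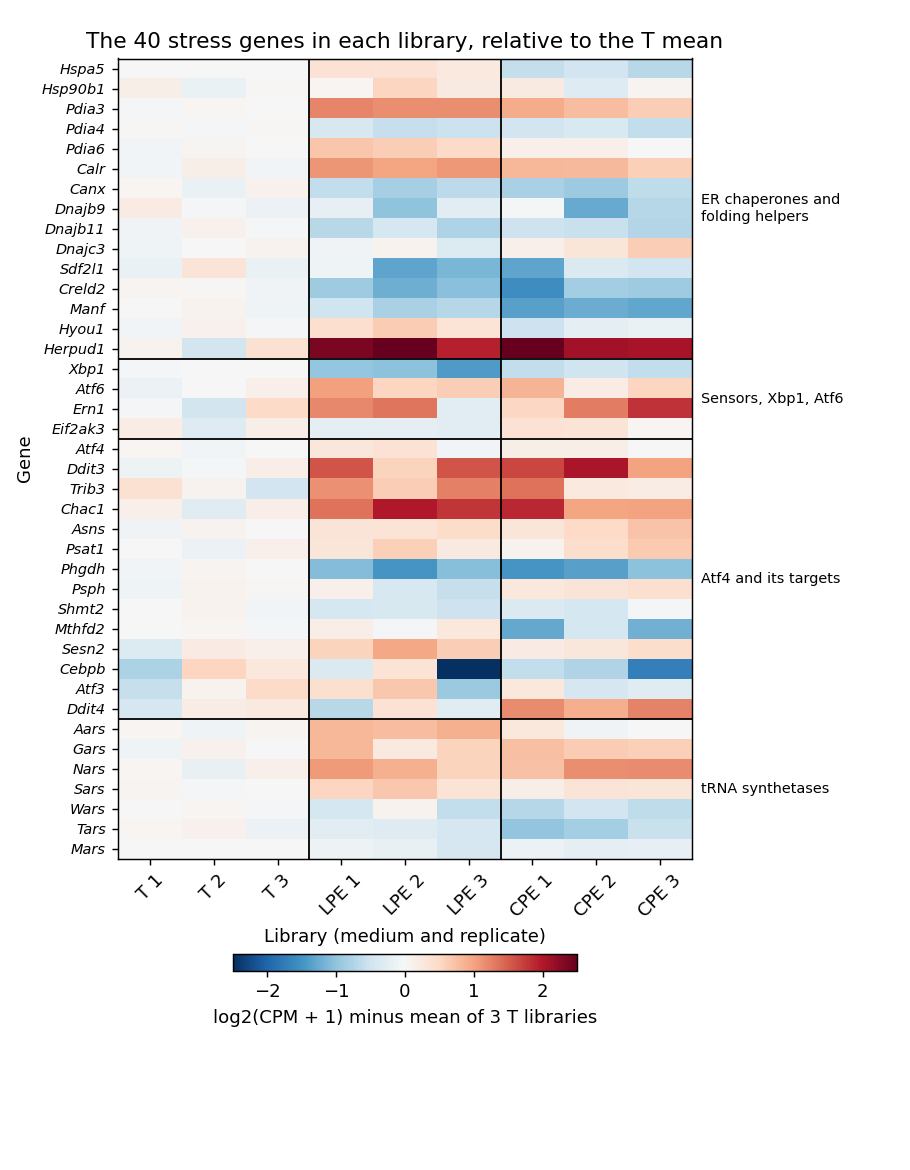
Level of each of the 40 genes (rows, ordered by branch) in each of the 9 libraries (columns), as log2(CPM + 1) minus the mean of the 3 T libraries, with red above and blue below it and values beyond 2.5 drawn at the end of the scale. Rows of both colours stand side by side within each branch, and Herpud1 is the darkest red row in both serum-free media.

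**Figure D3:**
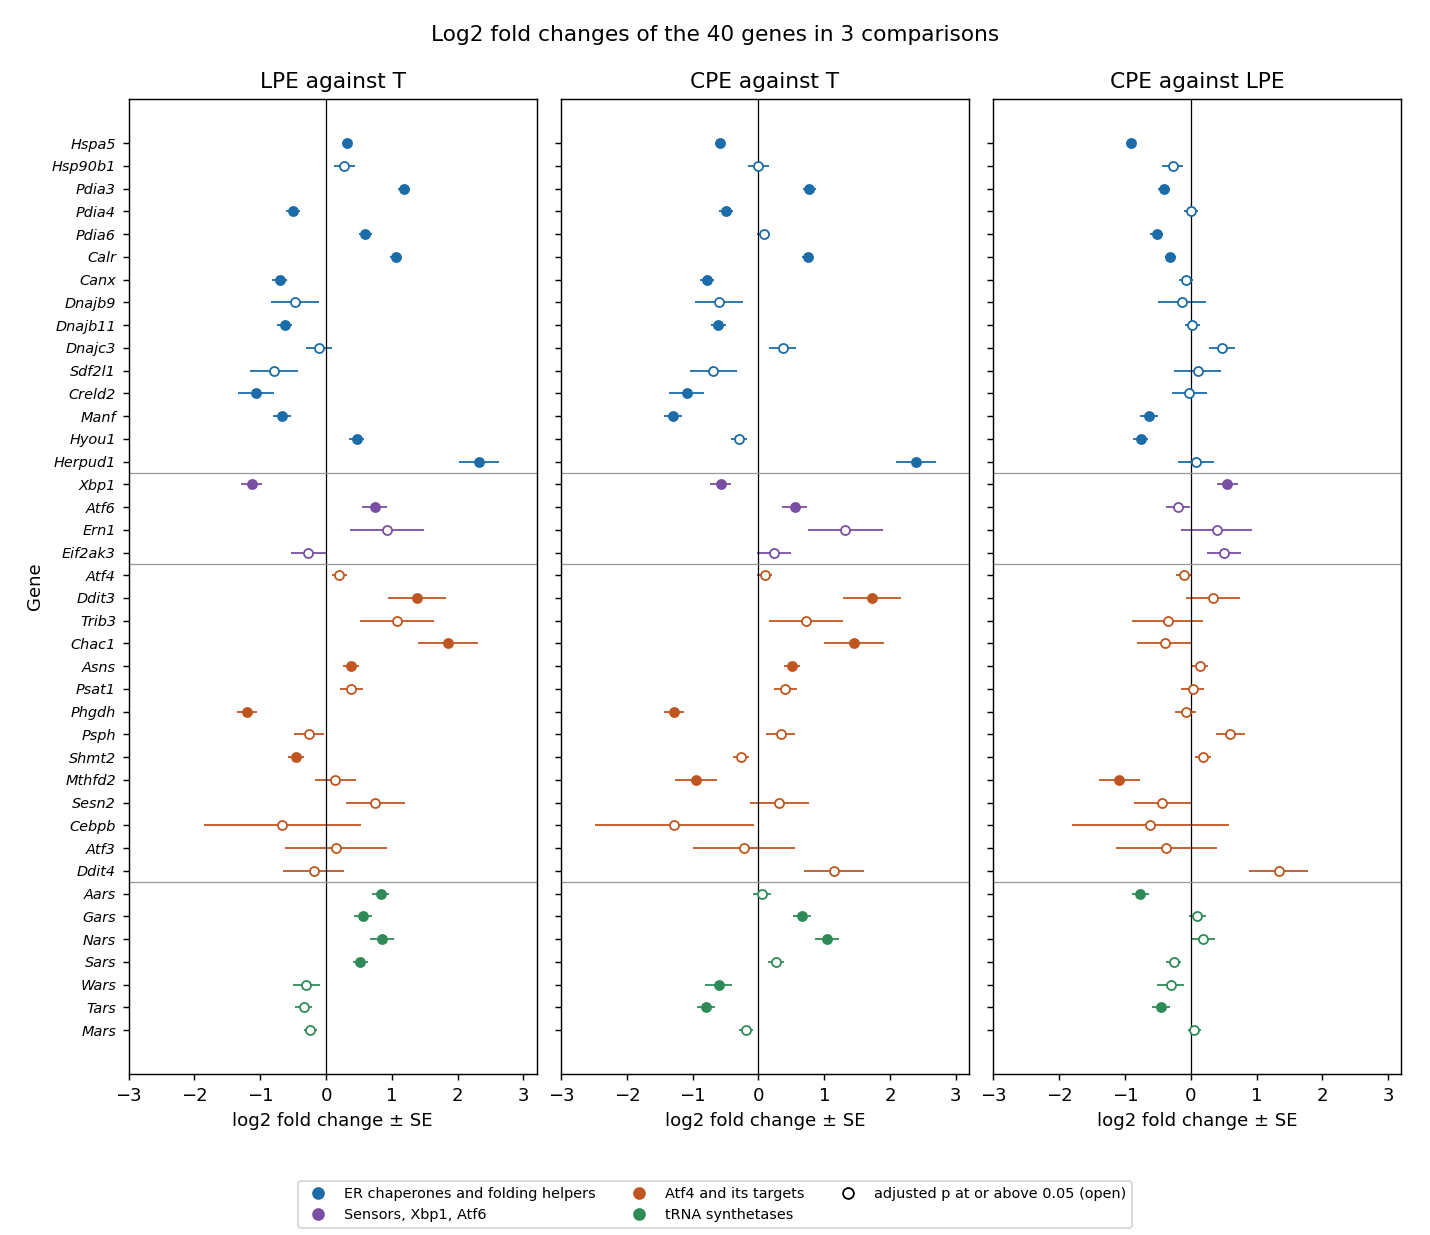
Log2 fold change of each of the 40 genes (points, with bars of 1 standard error, coloured by branch) in the 3 comparisons, with filled points for an adjusted p under 0.05. In the ER branch 6 filled points lie above 0 and 5 below in LPE against T, and all 6 filled points lie below 0 in CPE against LPE. Over all genes tested, 29.7% and 17.8% were called in these comparisons, in that order.

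The ER chaperones and folding helpers split by direction between LPE and T, with 6 of 15 higher and 5 lower (median log2 fold change -0.11). They also split between CPE and T, with 3 higher and 6 lower (median -0.49). Those calls are 73.3% and 60% of the branch, against 29.7% and 32.1% of all genes. Among genes of at least 50 CPM the shares were 46.8% and 48.6%. Hspa5 (BiP), the main Hsp70 chaperone of the ER, was at 3015, 3070.4 and 3083 CPM in T, at 3903, 3904 and 3622 in LPE and at 2033, 2179 and 1879.9 in CPE. No library of one medium overlapped another, LPE being the highest and CPE the lowest. Hspa5 was 1.25-fold higher in LPE than in T (log2 fold change 0.32 ± 0.08 SE, adjusted p = 0.0047) and 1.5-fold lower in CPE than in T (-0.59 ± 0.08, adjusted p = 2.5e-05). Its direct difference between CPE and LPE was 1.88-fold (-0.91 ± 0.08, adjusted p = 7.3e-07).

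Herpud1, an ER membrane protein of the degradation complex, had the largest fold change of the 40 genes against T. Its level was 18.0, 12.2 and 22.3 CPM in T, 91.4, 105 and 67.9 in LPE and 129, 76.3 and 74.4 in CPE. Every serum-free library exceeded every T library, while LPE and CPE overlapped. The rise was 4.99-fold in LPE (2.32 ± 0.30, adjusted p = 3.9e-05) and 5.27-fold in CPE (2.40 ± 0.30, adjusted p = 2.3e-05).

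Calr (calreticulin) and Canx (calnexin) are the lectin chaperones that hold glycoproteins during folding, and Pdia3 (ERp57) is the disulfide isomerase that works with them. Pdia3 was at 697, 745 and 725 CPM in T, 1689.9, 1616 and 1616 in LPE and 1376, 1227 and 1107 in CPE. The 3 media did not overlap, T being the lowest and LPE the highest, and Pdia3 was 2.27-fold higher in LPE (1.18 ± 0.09, adjusted p = 2.9e-07) and 1.71-fold higher in CPE (0.78 ± 0.09, adjusted p = 1.3e-05) than in T. Calr was at 1508, 1742 and 1501 CPM in T, 3402, 3136 and 3350.3 in LPE and 2793, 2772 and 2403 in CPE. It kept the same order without overlap, 2.08-fold higher in LPE (1.06 ± 0.09, adjusted p = 4.2e-07) and 1.68-fold in CPE (0.75 ± 0.09, adjusted p = 1.0e-05). Canx moved the other way, from 1143, 989.7 and 1196 CPM in T to 719, 621 and 698 in LPE and 629, 589 and 714 in CPE. It was 1.63-fold lower in LPE (-0.71 ± 0.11, adjusted p = 0.00014) and 1.72-fold lower in CPE (-0.79 ± 0.11, adjusted p = 4.6e-05), with LPE and CPE overlapping.

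The other disulfide isomerases also parted. Pdia6 rose 1.51-fold in LPE, from 628 ± 27.7 to 951 ± 74.5 CPM (SD, n = 3, adjusted p = 0.00024), and was at 662 ± 37.1 CPM in CPE. Pdia4 was 1.41-fold lower in both media, from 481 ± 15.2 CPM in T to 340.2 ± 20.9 in LPE and 342 ± 26.6 in CPE (adjusted p = 0.0023 in both). Hyou1 (Grp170), an exchange factor for Hspa5, was at 589.9, 666 and 599.8 CPM in T, 823, 957 and 783 in LPE and 429.9, 529.9 and 551 in CPE. All 3 media stood apart, and Hyou1 rose 1.38-fold in LPE (0.47 ± 0.12, adjusted p = 0.0064), while CPE against T did not pass (-0.30 ± 0.12, adjusted p = 0.064). It did without CPE library 3 (adjusted p = 0.042), with DESeq2 (0.046) and with limma voom (0.026), the range over 19 alternatives being 0.026 to 0.22.

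Manf, Creld2 and Dnajb11 fell in both serum-free media. Manf, a secreted protein that binds Hspa5, was at 266, 283 and 247 CPM in T, 188, 150.4 and 163 in LPE and 104, 112 and 107 in CPE. The media did not overlap and stepped down in that order, 1.59-fold in LPE (-0.67 ± 0.14, adjusted p = 0.0015) and 2.47-fold in CPE (-1.30 ± 0.14, adjusted p = 3.8e-06). Creld2, an ER protein with EGF-like domains, was at 68.8, 66.6 and 61.4 CPM in T, 35.2, 27.4 and 31.1 in LPE and 21.5, 35.4 and 35.1 in CPE. It fell 2.10-fold (-1.07 ± 0.27, adjusted p = 0.0075) and 2.13-fold (-1.09 ± 0.27, adjusted p = 0.0059), with no overlap with T. Dnajb11 (ERdj3), a co-chaperone of Hspa5, fell 1.55-fold in LPE and 1.53-fold in CPE, from 589 ± 43.7 CPM to 380.4 ± 46.6 and 386 ± 30.2 (adjusted p = 0.00076 and 0.00086).

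Of the 15 ER genes 4 passed in no comparison. Hsp90b1 (Grp94), the ER Hsp90, was at 288, 230.5 and 263 CPM in T, 269, 375 and 304 in LPE and 302, 208 and 272 in CPE, with all media overlapping (adjusted p = 0.21 and 1.0 against T). Dnajb9 (ERdj4), a target of spliced Xbp1 and a repressor of Ern1, was at 44.7, 37.6 and 34.9 CPM in T, 33.6, 19.0 and 32.1 in LPE and 38.3, 15.7 and 23.2 in CPE (adjusted p = 0.37 and 0.23). Its LPE libraries lay below T without passing the test. Sdf2l1, a partner of Dnajb11, was at 50.2, 71.2 and 50.7 CPM in T, 52.4, 22.1 and 25 in LPE and 22.1, 44.1 and 40.6 in CPE (adjusted p = 0.12 and 0.17). LPE library 1 alone lay in the T range, and without it the adjusted p for LPE against T was 0.016 (0.016 to 0.38 over 19 alternatives). Dnajc3 (p58IPK), an inhibitor of Eif2ak3, was at 78.0 ± 5.14, 72.4 ± 10.6 and 101 ± 17.8 CPM (adjusted p = 0.74 and 0.18).

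Between CPE and LPE 17.8% of all genes were called (8.23% lower in CPE), and 26.2% of genes of at least 50 CPM (12.5% lower). In the ER branch 6 genes (40%) were lower in CPE and 0 higher. Besides Hspa5, these were Hyou1 (1.7-fold, -0.76 ± 0.12, adjusted p = 0.00028), Manf (1.55-fold, -0.63 ± 0.14, adjusted p = 0.0042), Pdia6 (1.44-fold, -0.52 ± 0.10, adjusted p = 0.0013), Pdia3 (1.33-fold, -0.41 ± 0.09, adjusted p = 0.0054) and Calr (1.24-fold, -0.31 ± 0.09, adjusted p = 0.019). Calr lost its call without LPE library 1, LPE library 3 or CPE library 3 (adjusted p = 0.0012 to 0.083 over 19 alternatives).

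Summed, the ER branch took 0.960% ± 0.0277 of gene reads in T, 1.26% ± 0.0224 in LPE and 0.913% ± 0.0518 in CPE (SD, n = 3). The LPE libraries lay above all others, while T and CPE overlapped. Hspa5 and Calr, singled out after their values were seen, gave 47.9% to 49.4% of those reads in T, 55.3% to 56.7% in LPE and 49.7% to 53.0% in CPE. Without them the branch took 0.487% to 0.502% of gene reads in T, 0.533% to 0.567% in LPE and 0.430% to 0.464% in CPE, again without overlap between LPE and the rest. The synthetases took 0.195% ± 0.00465, 0.222% ± 0.0140 and 0.206% ± 0.00230, and the sensors 0.0342% ± 0.00148, 0.0320% ± 0.00452 and 0.0357% ± 0.00333, in T, LPE and CPE. The Atf4 branch was at 0.187% ± 0.00493, 0.178% ± 0.00922 and 0.184% ± 0.00783, with overlapping ranges.

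**Figure D4:**
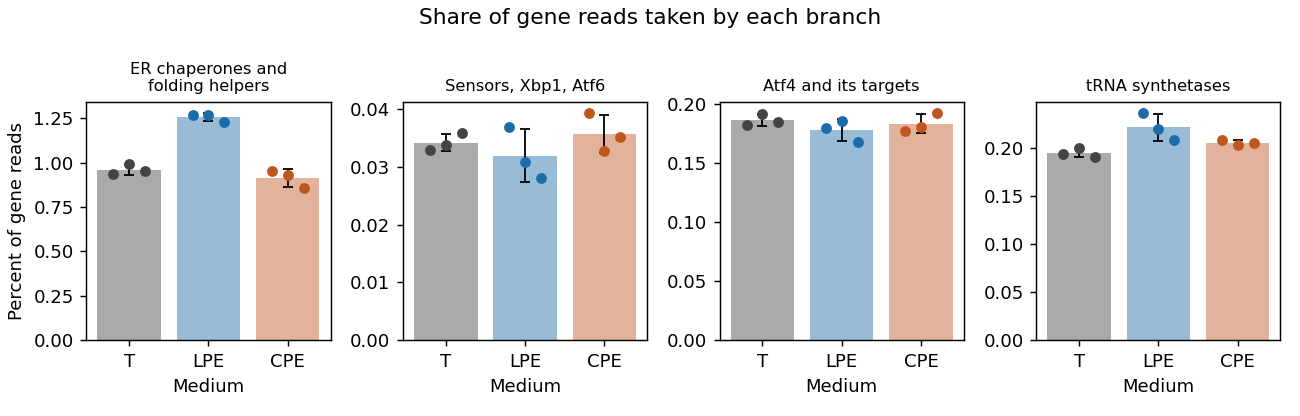
Percent of all gene reads taken by each branch in each medium (bars, mean of 3 libraries with SD, and a point for each library), each panel on its own axis from 0. The ER branch stands at 1.26% in LPE against 0.960% in T and 0.913% in CPE.

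In the sensor branch Xbp1 fell, Atf6 rose, and the kinases Ern1 and Eif2ak3 did not pass edgeR's test with all 9 libraries. Xbp1, the transcription factor whose mRNA Ern1 splices, was at 175, 179 and 179 CPM in T, 90.5, 86.4 and 66.0 in LPE and 116, 126 and 115 in CPE. The 3 media did not overlap, T being the highest and LPE the lowest, and Xbp1 was 2.19-fold lower in LPE (-1.13 ± 0.16, adjusted p = 8.8e-05), 1.49-fold lower in CPE (-0.58 ± 0.16, adjusted p = 0.011) and 1.47-fold higher in CPE than in LPE (0.55 ± 0.16, adjusted p = 0.024). Without T library 3 the CPE against T call was lost (adjusted p = 0.0020 to 0.053 over 19 alternatives). The CPE against LPE call was lost without T library 3, LPE library 3 or CPE library 2, with only the 6 libraries compared and with voom (adjusted p = 0.017 to 0.11). Xbp1 was the only gene of the 40 called higher in CPE than in LPE.

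Atf6, the membrane-bound factor released by cleavage, was at 104, 116 and 126 CPM in T, 234, 168 and 176 in LPE and 208, 131 and 167 in CPE. All serum-free libraries lay above T, with LPE and CPE overlapping. It rose 1.67-fold in LPE (0.74 ± 0.19, adjusted p = 0.0075) and 1.46-fold in CPE (0.55 ± 0.19, adjusted p = 0.036). The CPE call was lost without any 1 of T libraries 1, 2 and 3 or CPE libraries 1 and 3 (adjusted p = 0.013 to 0.18 over 19 alternatives).

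Ern1 was at 8.18, 5.79 and 12.1 CPM in T, 20.5, 22.7 and 6.73 in LPE and 12.4, 21.8 and 31.6 in CPE, with log2 fold changes of 0.92 ± 0.57 and 1.32 ± 0.57 (adjusted p = 0.25 and 0.089). LPE library 3 lay within the T range and the CPE libraries lay above it. CPE against T, a 2.5-fold difference, passed when all libraries were thinned to the smallest total (adjusted p = 0.045), with only the 6 libraries compared (0.031) and with voom (0.032), the range over 19 alternatives being 0.031 to 0.30. Eif2ak3, the kinase upstream of Atf4, was at 44.7, 31.3 and 43.7 CPM in T, 33.6, 33.3 and 32.7 in LPE and 50.7, 50 and 40.9 in CPE. Both serum-free media overlapped T (adjusted p = 0.49 and 0.53).

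Atf4 itself did not pass, whereas 5 of the 14 genes of its branch did in LPE against T (3 higher, 2 lower, median log2 fold change 0.17) and 5 in CPE against T (3 higher, 2 lower, median 0.33). These counts are 35.7% of the branch in both comparisons, close to the 29.7% and 32.1% of all genes called. Atf4 was at 591, 550.1 and 580.3 CPM in T, 696, 734 and 545 in LPE and 633, 637 and 567 in CPE. LPE library 3 lay below all T libraries and the other two above, and the log2 fold changes were 0.20 ± 0.11 and 0.09 ± 0.11 (adjusted p = 0.22 and 0.59). Without LPE library 3 the LPE difference passed (adjusted p = 0.043, range over 19 alternatives 0.043 to 0.47). Without T library 1, 2 or 3 the branch had 3, 2 and 3 calls in LPE against T, and 3 each time in CPE against T. Atf4 is controlled mainly in translation, which read counts do not show.

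Ddit3 (Chop), a transcription factor linked to cell death under stress, was at 8.18, 8.69 and 10.2 CPM in T, 28.8, 13.7 and 28.8 in LPE and 30.7, 40.2 and 19.0 in CPE. Each serum-free library exceeded each T library, by 2.62-fold in LPE (1.39 ± 0.44, adjusted p = 0.027) and 3.31-fold in CPE (1.73 ± 0.44, adjusted p = 0.0072). The LPE call was lost when all libraries were thinned to the smallest total (adjusted p = 0.052) and without any 1 of T libraries 1, 2 and 3 or LPE libraries 1 and 3 (adjusted p = 0.0051 to 0.10 over 19 alternatives). In the RefSeq table Ddit3 overlaps Mars1 on the other strand and another protein-coding gene on its own strand. Of the reads on either of its strands, 53.86% lay opposite to it. The comparisons use reads on its own strand, and both calls also held with the either-strand count. That count held few of the opposite reads, being 18 in T library 1, where 71 lay opposite and 15 on its own strand. It therefore cannot show what the opposite reads contribute. The part of the opposite reads in its counts was not tested.

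Chac1, which degrades glutathione and is a strong Atf4 and Chop target, was at 8.18, 5.79 and 8.37 CPM in T, 20.5, 32.6 and 27.9 in LPE and 30.1, 15.7 and 15.8 in CPE. All serum-free libraries exceeded T, by 3.60-fold in LPE (1.85 ± 0.46, adjusted p = 0.0061) and 2.73-fold in CPE (1.45 ± 0.45, adjusted p = 0.023). The CPE call was lost without any 1 of T libraries 1, 2 and 3 or CPE library 1 (adjusted p = 0.014 to 0.10 over 19 alternatives). Trib3, a pseudokinase that feeds back on Atf4, was at 10.9, 8.69 and 5.58 CPM in T, 19.2, 13.1 and 20.8 in LPE and 22.4, 9.77 and 9.34 in CPE. Its LPE libraries lay above T, but neither difference passed (1.08 ± 0.56 and 0.72 ± 0.56, adjusted p = 0.17 and 0.36).

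The amino acid enzymes of the branch went in both directions. Asns (asparagine synthetase) was at 244, 276 and 263 CPM in T, 328, 330.1 and 359 in LPE and 321, 369 and 427 in CPE. The serum-free libraries all lay above T, 1.30-fold in LPE (0.38 ± 0.12, adjusted p = 0.031) and 1.43-fold in CPE (0.51 ± 0.12, adjusted p = 0.0048). The LPE call was lost without any 1 of T libraries 1, 2 and 3 or LPE library 3 (adjusted p = 0.013 to 0.14 over 19 alternatives).

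In serine synthesis, Phgdh (the first enzyme) was at 316, 347 and 329.7 CPM in T, 155, 118 and 157 in LPE and 118, 129 and 161 in CPE. The serum-free libraries overlapped each other and lay well below T, 2.30-fold in LPE (-1.20 ± 0.15, adjusted p = 3.4e-05) and 2.44-fold in CPE (-1.28 ± 0.16, adjusted p = 1.4e-05). Psat1, the next enzyme, was at 114, 102 and 123 CPM in T, 139, 171 and 132 in LPE and 121, 153 and 177 in CPE (0.38 ± 0.18 and 0.41 ± 0.18, adjusted p = 0.12 and 0.089). The CPE difference of Psat1 passed without CPE library 1 (adjusted p = 0.033), thinned (0.045), with only the 6 libraries compared (0.047) and with voom (0.046), the range over 19 alternatives being 0.033 to 0.31. Psph, the last, was at 64.6 ± 4.23, 53.9 ± 14.5 and 81.7 ± 3.97 CPM in T, LPE and CPE and passed in no comparison, though CPE against LPE did without LPE library 1 (adjusted p = 0.018, range 0.018 to 0.26).

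In mitochondrial one-carbon metabolism, Shmt2, which splits serine to glycine, fell 1.37-fold in LPE, from 418 ± 22.5 to 306 ± 12.4 CPM (adjusted p = 0.011), and was at 348 ± 53.3 CPM in CPE. The LPE call was lost without T library 2 (adjusted p = 0.0041 to 0.051 over 19 alternatives), and CPE against T passed without CPE library 3 (adjusted p = 0.018) and with voom (0.045, range 0.018 to 0.31). Mthfd2, the next enzyme of the mitochondrial folate pathway, was at 36.6, 38.2 and 36.3 CPM in T, 41.6, 36.1 and 44.9 in LPE and 14.7, 27.0 and 15.5 in CPE. CPE lay below both other media, 1.93-fold below T (-0.95 ± 0.32, adjusted p = 0.031) and 2.13-fold below LPE (-1.09 ± 0.31, adjusted p = 0.023), where it was the only call of the branch. The call against T was lost without any 1 of T libraries 1, 2 and 3 or CPE libraries 1 and 3 (adjusted p = 0.010 to 0.10 over 19 alternatives), and the call against LPE without LPE library 3, CPE library 1 or CPE library 3, with only the 6 libraries compared and with voom (0.010 to 0.083).

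The other stress-induced regulators of the branch did not pass edgeR's test with all 9 libraries. Ddit4 (Redd1), an inhibitor of mTORC1, averaged 12.3 ± 3.14 CPM in T and 10.8 ± 4.53 in LPE, against 27.4 ± 3.34 in CPE. Its CPE libraries lay above all others, with log2 differences of 1.14 ± 0.46 from T (adjusted p = 0.068) and 1.33 ± 0.45 from LPE (adjusted p = 0.053). Without LPE library 2 both passed (adjusted p = 0.027 and 0.014), as the first did without LPE library 1 (0.045), with 6 libraries (0.014) and with voom (0.011), and the second with DESeq2 (0.035) and thinned (0.015), the ranges over 19 alternatives being 0.011 to 0.24 and 0.014 to 0.13. Sesn2, another inhibitor of mTORC1, was at 11.5 ± 2.46, 19.4 ± 3.13 and 14.4 ± 1.28 CPM, and the transcription factors Atf3 and Cebpb stayed below 12 CPM in every library.

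**Figure D5:**
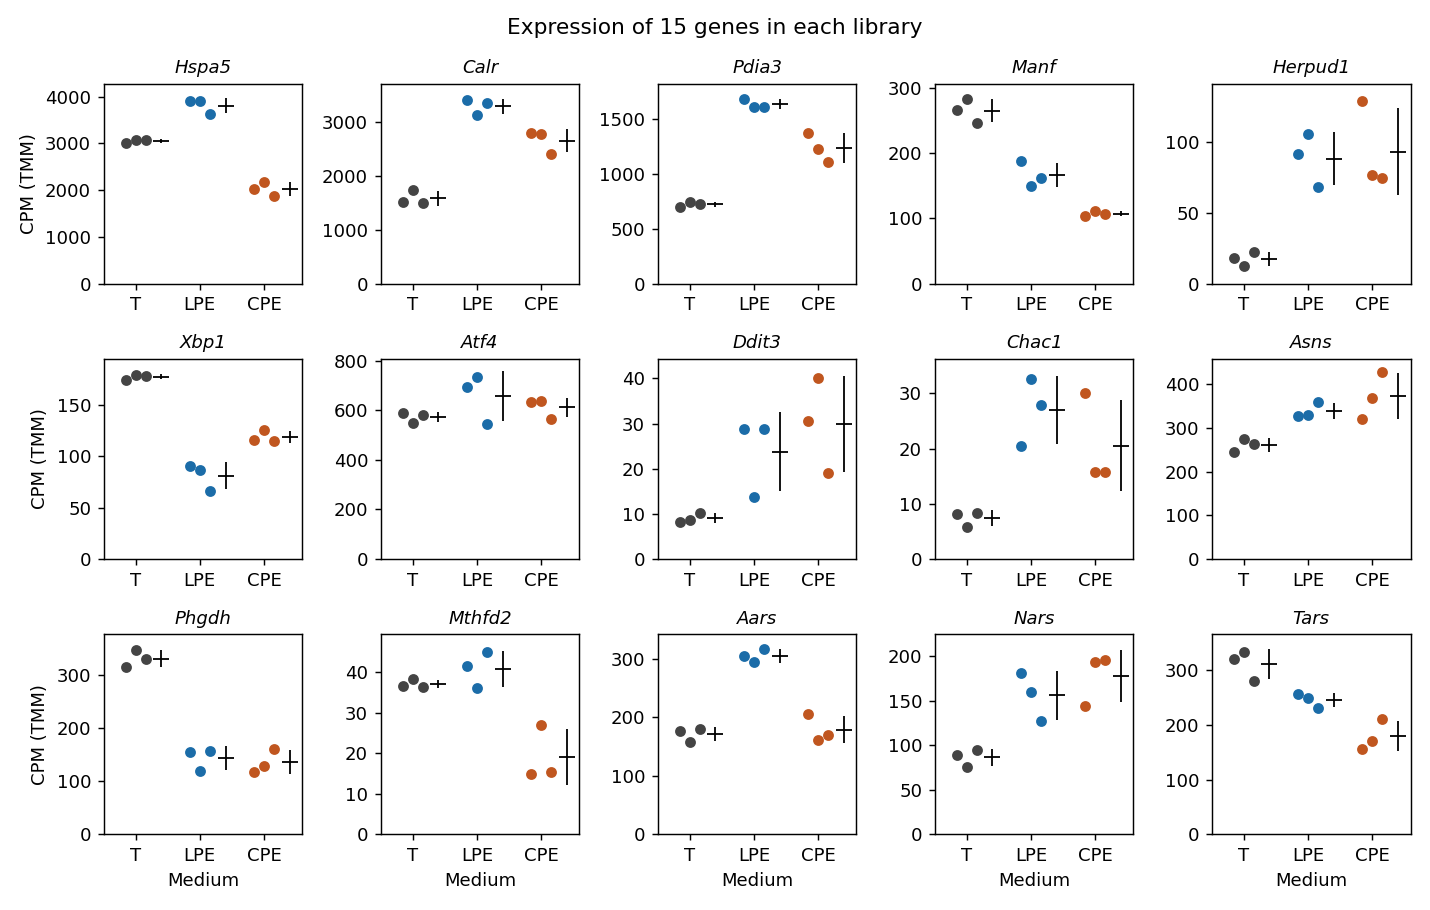
CPM of 15 named genes in each library (points) with mean and SD beside them, by medium, each panel from 0. Hspa5 has LPE above and CPE below T, Manf and Tars step down from T to LPE to CPE, Herpud1 and Chac1 are low in all 3 T libraries, and the 3 media overlap in Atf4.

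The cytosolic transfer RNA synthetases, which charge transfer RNAs with amino acids, had 4 of 7 higher and 0 lower in LPE against T (median log2 fold change 0.52) and 2 higher and 2 lower in CPE against T (median 0.06). Calls were 57.1% of the branch each time, against 29.7% and 32.1% of all genes, whose medians were -0.03 and -0.01. Among genes of at least 50 CPM, a level that these synthetases reached, the shares were 46.8% and 48.6%. Aars (alanine) was at 177, 158 and 179.9 CPM in T, 304, 294 and 317 in LPE and 206, 161 and 169 in CPE. LPE stood apart from the other media, which overlapped, 1.78-fold above T (0.83 ± 0.13, adjusted p = 0.00025), and CPE was 1.71-fold below LPE (-0.77 ± 0.13, adjusted p = 0.00073). Nars (asparagine) was at 88.9, 75.9 and 94.4 CPM in T, 181, 159.8 and 127 in LPE and 144, 194 and 196 in CPE. It rose 1.8-fold in LPE (0.85 ± 0.18, adjusted p = 0.0023) and 2.06-fold in CPE (1.04 ± 0.18, adjusted p = 0.00043), all serum-free libraries lying above T.

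Gars (glycine) was at 338, 390.3 and 368 CPM in T, 647, 430.2 and 539 in LPE and 611, 566 and 554 in CPE. It rose 1.47-fold in LPE (0.56 ± 0.13, adjusted p = 0.0047) and 1.58-fold in CPE (0.66 ± 0.13, adjusted p = 0.0013), with no overlap with T. Sars (serine) rose 1.44-fold in LPE, from 245 ± 11.6 to 352 ± 39.0 CPM (adjusted p = 0.0040), and was at 294 ± 19.1 CPM in CPE (adjusted p = 0.11).

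Tars and Wars fell in CPE. Tars (threonine) was at 321, 333 and 280.4 CPM in T, 256, 249 and 232 in LPE and 157, 171 and 211 in CPE. The media stepped down without overlap, with CPE 1.73-fold below T (-0.79 ± 0.14, adjusted p = 0.00038) and 1.37-fold below LPE (-0.45 ± 0.14, adjusted p = 0.030), while LPE against T missed the threshold (adjusted p = 0.071). Without CPE library 1 or CPE library 3 that last difference passed (adjusted p = 0.049 and 0.042, range 0.042 to 0.23), and the CPE against LPE call was lost without T library 1, LPE library 1, CPE library 1 or CPE library 2, thinned, with only the 6 libraries compared and with voom (adjusted p = 0.011 to 0.10 over 19 alternatives).

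Wars (tryptophan), which interferon also induces, was at 109.7, 115 and 108 CPM in T, 81.2, 118 and 71.8 in LPE and 67.2, 79.7 and 71.5 in CPE. CPE lay 1.52-fold below T (-0.61 ± 0.20, adjusted p = 0.032), and LPE library 2 lay above the T range. The CPE call was lost when all libraries were thinned to the smallest total (adjusted p = 0.080) and without any 1 of T libraries 1, 2 and 3 or CPE libraries 1 and 3 (adjusted p = 0.0075 to 0.10 over 19 alternatives), and LPE against T passed without LPE library 2 (adjusted p = 0.045, range 0.045 to 0.60). Mars (methionine) was at 653 ± 6.88, 552 ± 59.1 and 573 ± 15.7 CPM and passed in no comparison.

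Other genes of the same pathways are given by count, to be read against the 29.7% of all genes called in LPE against T, 32.1% in CPE against T and 17.8% in CPE against LPE. The lists called 43.8% and 56.3% of further cytosolic synthetases against T, 6.67% of mitochondrial synthetases in both media, 31.6% of degradation genes in both, 31.8% and 50% of translocation genes, 40.9% of folding enzymes in both, 45% and 35% of Atf4 response genes and 38.5% and 23.1% of one-carbon genes. The degradation genes in both media, the translocation genes in LPE and the Atf4 response genes in CPE thus lay near the share of all genes, and the mitochondrial synthetases and, in CPE, the one-carbon genes below it. Among genes of at least 50 CPM the shares were 46.8%, 48.6% and 26.2% in the same order of comparisons. The lists were not split by level, so a share above that of all genes shows no excess. Of 16 further cytosolic synthetases and scaffold genes tested, 5 were higher and 2 lower in LPE against T and 3 higher and 6 lower in CPE against T. Lars (leucine) rose from 115 ± 8.33 CPM to 223 ± 25.3 in LPE and 293 ± 46.3 in CPE (adjusted p = 0.00021 and 6.9e-06), while the scaffold gene Eef1e1 fell from 183 ± 21.9 CPM to 100.5 ± 30.6 and 102 ± 14.8 (adjusted p = 0.0054 and 0.0057). Of 15 mitochondrial synthetases tested, 1 changed in LPE (higher) and 1 in CPE (lower) against T, and 0 to 2 and 1 to 2 when libraries were left out in turn.

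Of 19 ER-associated degradation genes tested, 3 were higher and 3 lower in LPE and 5 higher and 1 lower in CPE against T. Sel1l, the adaptor of the degradation complex in which Herpud1 works, averaged 36.0 ± 4.66 CPM in T, against 104 ± 48.2 in LPE and 85.1 ± 5.95 in CPE, 2.88-fold and 2.36-fold higher (adjusted p = 0.00099 and 0.0041). Vcp, the ATPase that extracts substrates, was 1.59-fold and 1.48-fold lower (adjusted p = 4.1e-05 and 0.00015). Of 22 translocation and signal peptide genes, 2 were higher and 5 lower in LPE and 3 higher and 8 lower in CPE. Sec61a1, the channel subunit, was 1.96-fold and 2.03-fold lower (adjusted p = 1.7e-06 and 8.4e-07). Of 22 further ER folding enzymes tested, 6 were higher and 3 lower in LPE and 4 higher and 5 lower in CPE. The degradation genes called in CPE against T rose to 10 without LPE library 2, and the translocation genes called dropped to 4 without T library 1 or 2 in LPE against T and to 7 without T library 3 in CPE against T.

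Of 20 further genes of the Atf4 and eIF2alpha response tested, 7 were higher and 2 lower in LPE and 4 higher and 3 lower in CPE against T. The glutamine carrier Slc1a5 rose from 33.3 ± 8.13 CPM to 161 ± 6.34 in LPE (4.83-fold, adjusted p = 3.2e-06) and 130 ± 34.9 in CPE (3.89-fold, adjusted p = 1.1e-05). Without T library 3 the LPE count dropped to 5, and without T library 1, 2 or 3 the CPE count dropped to 4, 3 and 4. Of 13 further one-carbon and glycine genes tested, 2 were higher and 3 lower in LPE and 1 higher and 2 lower in CPE, the LPE count dropping to 3 without T library 2. Mthfd1l, which acts beside Mthfd2 in the mitochondrial folate pathway, rose 2.03-fold and 2.25-fold (adjusted p = 0.00048 and 0.00012), whereas Mthfd2 was not called in LPE and fell in CPE.

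Between CPE and LPE the same lists gave 5 of 16 further cytosolic synthetases lower and 0 higher, 5 of 22 further ER folding enzymes lower and 1 higher, and 4 of 20 further Atf4 response genes lower and 1 higher. The degradation list gave 2 higher and 0 lower, and the translocation list 2 of each, with 2 calls in all without LPE library 3 or CPE library 1. The folding enzyme count dropped to 3 without CPE library 3. The amino acid carrier Slc7a5 was at 106 ± 26.3 CPM in LPE and 36.1 ± 9.62 in CPE, 2.95-fold lower in CPE (adjusted p = 0.00074).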

How the data were processed

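RNA of 3 T, 3 LPE and 3 CPE libraries was sequenced after ribosomal RNA removal, with a directional kit and paired reads of 101 cycles, per the labels' protocols, which name both HiSeq2000 and HiSeq2500. Per the submitters' processing notes, CASAVA 1.8.2, Trimmomatic 0.33, STAR 2.5.1 and DESeq2 were used with build rn6, while the sources used here do not give the gene annotation. The deposited values are raw counts per gene made by the authors, and the gene-strand count was used, the opposite strand holding 0.822% to 0.986% of gene reads. The summary lines, covering unmapped (6.32% to 8.67%), multimapping, no-feature (13.9% to 26.1%) and ambiguous reads (1.11% to 2.46%), name no gene and were left out. Multimapping reads are assigned to no gene, which makes genes with close copies uncertain, among them 5 members with a pseudogene named after them in RefSeq (Hsp90b1, Pdia4, Phgdh, Psat1 and Shmt2).

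The test was edgeR's quasi-likelihood F test (version 4.0.16, R 4.3.3), fitted to all 9 libraries with 1 mean per medium, TMM factors and filterByExpr (9130 genes), adjusting over all genes tested by Benjamini-Hochberg. CPM use TMM-scaled library sizes. Errors of log2 fold changes are the fold change divided by the square root of F. No libraries agreed within sampling noise, so all 9 were kept. Alternatives were DESeq2 1.42.0, other scaling, filters, strand and depth, fewer libraries, a replicate block and, added after seeing the data, limma 3.58.1 voom. Replicate numbers come from the titles, and libraries sharing a number did not deviate together (correlations -0.027 to 0.012 over 9 pairs).

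The members and lists were chosen with earlier results of these data known. Values in each library are given for 18 anchor genes and, in each branch and comparison, for the 3 largest called changes of at least 5 CPM, and from each further pathway list up to 2 of the largest called rises and 2 of the largest falls could be named. Promoters came from RefSeq, build GRCr8.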

Additional observations from a re-analysis of the deposited data

Results flagged for a closer look

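Both results here are signals outside the gene-strand counts that the comparisons use. Reads on the strand opposite to Ddit3 numbered 719, or 53.86% of the reads on either of its strands, and came to 57 to 120 per library against 15 to 177 on its own strand. In the RefSeq table Ddit3 overlaps Mars1, the methionine synthetase, on the other strand. Reads opposite to Cebpb numbered 6, or 5.0% of its reads. The other 38 members had at most 0.733%, where whole libraries had at most 0.986%.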

How the results depend on the processing

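Of 2280 recomputed member values under 19 alternatives, 2203 kept their call, 52 lost it and 25 gained it, and 0 called values changed sign. All alternatives kept 19 of the 22 calls of LPE against T, 15 of 20 of CPE against T and 6 of 10 of CPE against LPE, and scaling moved the median of all genes by under 0.1 (log2). Members called numbered 21 to 22, 20 to 25 and 7 to 11 when no library was left out, and 19 to 23, 15 to 21 and 7 to 11 when each was in turn. The counts that moved by over 1.5 times were, in CPE against LPE, the sensors (1, and 0 with 6 libraries or voom), the Atf4 branch (1, 2 with DESeq2 or thinned, 0 with 6 libraries or voom) and the synthetases (2, and 1 thinned, with 6 libraries or voom), and in CPE against T the Atf4 branch (5, and 8 with voom). Leaving out libraries gave 0 to 2 sensors, 3 to 6 Atf4 branch genes in CPE against T, 2 to 5 Atf4 branch genes in LPE against T, and 0 to 1 sensors, 0 to 2 Atf4 branch genes and 1 to 2 synthetases in CPE against LPE. Among the further lists, voom called 2 mitochondrial synthetases in LPE against T (1 reported), 14 folding enzymes (9) and 6 one-carbon genes (3) in CPE against T, and voom and 6 libraries called 2 and 3 mitochondrial synthetases (1) and 11 degradation genes (6) in CPE against T and 2 translocation genes (4) in CPE against LPE. In CPE against LPE thinning, 6 libraries and voom called 1 degradation gene (2), and 6 libraries 3 Atf4 response genes (5) and 0 mitochondrial synthetases (1). The cause was not tested. In the genes under about 12 CPM, T values rest on few reads.

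Nothing states whether the replicate numbers pair the libraries. With the replicate block 22, 20 and 10 members were called, as without it, and 2558, 2751 and 1500 genes against 2716, 2928 and 1624.

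Uncalled log2 fold changes changed sign, still uncalled, in 44 recomputations of 17 values. Each is given with its range over left-out libraries where that range crossed 0, and in brackets under other alternatives. In CPE against T they were Hsp90b1 -0.00099 with -0.13 to 0.13 (0.013 DESeq2 size factors and DESeq2, 0.043 thinned, 0.023 6 libraries), Atf3 -0.22 with -0.50 to 0.092 and Aars 0.058 with -0.060 to 0.12. In CPE against LPE they were Pdia4 0.0071 with -0.047 to 0.064 (-0.0017 6 libraries), Dnajb9 -0.14 with -0.54 to 0.13, Dnajb11 0.020 with -0.042 to 0.12, Sdf2l1 0.10 with -0.12 to 0.60 (-0.16 thinned), Creld2 -0.022 with -0.14 to 0.18 (0.21 thinned), Herpud1 0.076 with -0.23 to 0.22, Psat1 0.029 with -0.10 to 0.17, Phgdh -0.081 with -0.22 to 0.012, Cebpb -0.62 with -1.19 to 0.25 (0.56 voom), Atf3 -0.37 (0.11 thinned), Gars 0.099 with -0.042 to 0.25 and Mars 0.053 with -0.029 to 0.12. In LPE against T they were Atf3 0.15 with -0.20 to 0.53 (-0.24 thinned) and Ddit4 -0.19 with -0.55 to 0.049.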
